A study of Mus musculus with 16 samples.

Results

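The genes described here are 38 genes of the endoplasmic reticulum that fold newly made secretory proteins, form their disulphide bonds, remove the misfolded ones, sense the load and carry chains through the membrane. They were taken by name from a list drawn up with earlier results of these data known, and all 38 are among the 29535 genes of the deposited table. Poly-A RNA of mouse prostate was sequenced in 16 libraries from animals aged 12 months on a hybrid background of C57Bl/6J and a second inbred strain. The groups were mutants given finasteride (n = 5), wild type given finasteride (n = 5), mutants given vehicle (n = 3) and wild type given vehicle (n = 3). Mutant means homozygous (-/-) for a mutation of 1 gene, against wild type (+/+) at that gene, and nothing else sets the genotypes apart in the labels. Finasteride blocks 5-alpha-reductase, the enzyme that turns testosterone into the stronger androgen dihydrotestosterone. The labels name the prostate as the tissue and give neither dose, length of treatment, lobe nor batch.

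Proteins bound for secretion enter the endoplasmic reticulum through the Sec61 channel, fold there with the help of the Hsp70 chaperone BiP and of the lectin chaperones calnexin and calreticulin, and gain disulphide bonds from protein disulphide isomerases. Proteins that fail are trimmed, carried back through the membrane and marked for the proteasome by the ligase complex of Syvn1 and Sel1l. When unfolded protein builds up, the sensors IRE1 (Ern1), PERK (Eif2ak3) and ATF6 start the unfolded protein response, which raises chaperone and degradation genes, and the secretory luminal cells of the prostate are among the cells that carry a heavy secretory load.

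Values are normalized log2 expression, so 1 unit is a factor of 2, and they are not scaled to gene length, so levels are compared between samples and not between genes. Read depth is unknown. The sum of all linear values, written as its log2, was 24.07 to 24.16 in the 5 mutant finasteride libraries, against 24.31 to 24.55 in the rest. Of the 16 libraries, 5 were close to a mixture of 2 others of their group, with a residual of 0.0704 to 0.0969 on the log2 scale, namely mutant finasteride 3 and 4, wild type finasteride 4, mutant vehicle 3 and wild type vehicle 3. Results are therefore given over all 16 libraries, and the counts and the calls with their full statistics also over the 11 others. Whether every library came from its own animal is not stated, and the p-values cover only the spread among these libraries, which may be technical. Pbsn, the androgen-driven secretory gene probasin, was found in every library, at 10.35 to 11.46 in mutant finasteride and 17.50 to 18.32 in wild type finasteride libraries. Its values were 15.66 to 15.73 in mutant vehicle and 18.08 to 18.31 in wild type vehicle libraries. Exons of Derl2, Hsp90b1, Manf, Pdia3, Pdia4, Pdia6 and Syvn1 overlap those of another gene of the table in GRCm38.p6, by 14 to 270 bases. Whether the authors' counting used strand is not given in the sources used here, so part of their reads cannot be told apart from the other gene's. All 38 genes passed the filter on low values, a mean of at least 10 after taking values out of log2, which left 16895 genes to test.

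The promoters of 32 of the 38 genes were matched in RefSeq (GRCm38.p6), as windows of 300 bases from 250 before to 50 after the gene's start; Hyou1, Sil1, Manf, Derl1, Atf6 and Sec61a1 had no entry. Many genes of the unfolded protein response carry the endoplasmic reticulum stress response element (ERSE), which ATF6 binds together with the factor NF-Y. The ERSE was searched on either strand as CCAAT and CCACG with 9 bases of any kind between them, and its shorter form, ERSE-II, as ATTGG and CCACG with 1 base between them. ERSE stood in 10 of the 32 windows (31.2%) and in 37 of all 27025 genes with a window (0.137%), a description of these letters and not of binding. ERSE-II stood in the windows of Dnajb11 and Herpud1, 2 of 32 (6.25%), against 0.0444% of all genes. The core letters TGACGTGG, searched on both strands, of the unfolded protein response element were in 0 of the 32 windows and in 0.714% of all genes. The letters CCACG alone, which are also part of both longer motifs, were in 26 of 32 windows (81.2%), against 35.5% of all genes. The CCAAT box, part of the ERSE, was in 24 of 32 (75%), against 41.1%.

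The promoters below belong to genes whose levels carry the results that follow, 5 with large differences between the groups and Ero1lb, whose sign was the other way. Each run holds the 250 bases before the start on the plus strand of GRCm38.p6, and capitals mark the match. The runs are chr2:34771840-34772089 for Hspa5, chr15:88819396-88819645 for Creld2, chr10:75893148-75893397 for Derl3, chr19:6046326-6046575 for Syvn1, chr8:94386179-94386428 for Herpud1 and chr13:12565633-12565882 for Ero1lb. In Creld2, Derl3 and Ero1lb the motif lies on the opposite strand, so it reads from CGTGG to ATTGG. The match begins 65 bases before the start in Hspa5, 126 in Creld2, 156 in Derl3, 44 in Syvn1, 52 in Herpud1 and 201 in Ero1lb.
Hspa5: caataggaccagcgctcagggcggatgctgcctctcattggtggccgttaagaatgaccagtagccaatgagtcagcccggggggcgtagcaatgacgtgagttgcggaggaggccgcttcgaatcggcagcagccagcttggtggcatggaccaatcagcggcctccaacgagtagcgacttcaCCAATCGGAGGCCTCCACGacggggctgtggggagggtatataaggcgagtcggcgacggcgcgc
Creld2: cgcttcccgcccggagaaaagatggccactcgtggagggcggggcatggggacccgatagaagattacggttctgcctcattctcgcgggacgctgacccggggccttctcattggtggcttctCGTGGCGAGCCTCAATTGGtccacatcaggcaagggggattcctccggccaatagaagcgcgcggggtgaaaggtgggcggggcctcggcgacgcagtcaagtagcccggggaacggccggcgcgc
Derl3: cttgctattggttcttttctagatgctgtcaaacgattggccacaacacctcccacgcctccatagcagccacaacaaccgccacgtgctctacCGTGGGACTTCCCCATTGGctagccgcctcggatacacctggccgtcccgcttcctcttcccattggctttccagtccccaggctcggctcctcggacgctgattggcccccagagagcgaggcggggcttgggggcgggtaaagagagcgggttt
Syvn1: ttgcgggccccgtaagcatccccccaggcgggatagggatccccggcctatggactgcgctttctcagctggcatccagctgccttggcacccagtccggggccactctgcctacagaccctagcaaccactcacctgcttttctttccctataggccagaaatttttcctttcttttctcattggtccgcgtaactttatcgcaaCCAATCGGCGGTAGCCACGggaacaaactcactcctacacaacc
Herpud1: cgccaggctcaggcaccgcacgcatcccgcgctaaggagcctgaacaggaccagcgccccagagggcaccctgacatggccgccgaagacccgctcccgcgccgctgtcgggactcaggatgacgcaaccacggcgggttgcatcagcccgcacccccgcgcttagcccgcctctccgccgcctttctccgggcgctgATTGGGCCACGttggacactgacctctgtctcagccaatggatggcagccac
Ero1lb: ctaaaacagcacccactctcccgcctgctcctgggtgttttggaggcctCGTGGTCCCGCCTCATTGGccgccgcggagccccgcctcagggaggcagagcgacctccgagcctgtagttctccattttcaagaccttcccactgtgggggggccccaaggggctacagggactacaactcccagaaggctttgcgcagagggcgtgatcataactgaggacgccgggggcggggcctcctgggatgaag

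The remaining matches are shown as sites only, each written along the strand that carries the motif, with the fixed letters in capitals, since the ERSE sites vary only in the spacer. Hsp90b1 has 2 sites, and the site of Dnajb11 is an ERSE-II, with other fixed letters and a shorter spacer, just after the start.
Dnajc3: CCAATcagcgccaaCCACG
Hsp90b1, farther: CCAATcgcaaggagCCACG
Hsp90b1, nearer: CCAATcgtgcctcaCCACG
Calr: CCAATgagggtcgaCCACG
Canx: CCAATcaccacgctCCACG
Pdia6: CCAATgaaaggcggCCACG
Dnajb11: ATTGGcCCACG

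Of the 12 genes with ERSE or ERSE-II, finasteride lowered 11 and raised 1 (Ero1lb) in the mutant, and in wild type raised 8 and lowered 1 (Ero1lb), by the limma test described next. Of the 20 genes whose windows held neither, 14 fell and 0 rose in the mutant, while 9 rose and 1 fell in wild type. The opposite directions were thus found with and without the motif. Among all genes tested, 22.3% fell and 26.3% rose in the mutant, while 17.9% rose and 21.9% fell in wild type. The median log2 fold change of the 12 was -0.82 in the mutant and 0.53 in wild type, and that of the 20 was -0.51 in the mutant and 0.25 in wild type; the difference was not tested.

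On finasteride the folding and degradation genes went in opposite directions in the 2 genotypes. In the mutant, 31 of the 38 were lower on finasteride than on vehicle and 1, the oxidase gene Ero1lb, was higher. In wild type, 21 were higher on finasteride, led by the ubiquitin ligase Syvn1, the stress-induced gene Creld2 and Herpud1, and 2 were lower, Ero1lb and the translocon gene Ssr3. On finasteride, 33 were lower in the mutant than in wild type and 0 were higher (limma, 1 higher at an unadjusted p under 0.05). On vehicle the genotypes differed in fewer of them, 4 higher in the mutant (Sil1, Pdia4, Os9 and Ern1) and 2 lower (Ero1lb and Eif2ak3), but that count depended on the fit, with 14 higher and 4 lower when only the 2 vehicle groups were fitted. Because these are whole tissue samples, fewer cells of a type and less RNA per cell cannot be told apart.

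The test was limma's on the deposited values, with Benjamini-Hochberg adjustment over all 16895 genes and a threshold of 0.05, and the figure after ± is the SE of a log2 fold change or difference. The spread of a gene was shared by all 4 groups, so each SE also depends on libraries outside its comparison. In the mutant, 22.3% of all genes tested were lower on finasteride and 26.3% higher, against 31 and 1 of the 38. In wild type, 17.9% of all genes were higher and 21.9% lower, against 21 and 2 of the 38. The median log2 fold change was -0.66 over the 38 and -0.00 over all genes in the mutant, and 0.41 over the 38 and -0.03 over all genes in wild type. A fall of over 1 log2 unit was called in the mutant for 8 of the 38 (2.52% of all genes) and a rise of more than 1 unit in wild type for 7 (1.52% of all genes). Mutant finasteride was over 1 log2 unit below wild type finasteride for 16 (4.08% of all genes), and the finasteride effect itself was over 1 unit lower in the mutant for 22 (6.33%). Of the 38, 19 fell in the mutant and rose in wild type, a combination called for 7.72% of all genes. The finasteride effect itself, mutant minus wild type, was lower for 32 of the 38 and higher for 1, Ero1lb, against 26.6% and 30.2% of all genes, with a median of -1.18.

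Between genotypes on finasteride, 29.7% of all genes were lower in the mutant and 33.9% higher, against 33 and 0 of the 38, with a median of -0.86 over the 38 and 0.02 over all genes. On vehicle, 14.3% of all genes were higher in the mutant and 17.5% lower, against 4 and 2 of the 38, and the median over the 38 was 0.12. With only the 2 vehicle groups in the fit, 21.0% of all genes were higher and 22.5% lower, against 14 and 4 of the 38. Without wild type finasteride 2 and mutant finasteride 2, 19.9% of all genes were higher and 22% lower on vehicle, against 11 and 2 of the 38. No vehicle library was left out of that fit, and the fold changes between the vehicle groups were those of the full fit. In 31 of the 38 every mutant finasteride library lay below every mutant vehicle library (24.3% of all genes), and in 20 every wild type finasteride library lay above every wild type vehicle library (16.5%). Mutant finasteride libraries all lay below the wild type finasteride libraries in 24 (18.3% of all genes). On vehicle all mutant libraries were above the wild type ones in 16 (27.4% of all genes) and below them in 6 (27.9%). Over 11 libraries fewer calls were made, with 17 falls in the mutant (9.06% of all genes) and 7 rises in wild type (3.56%). Over the same 11, 25 were lower in the mutant between the finasteride groups (18.7%) and 25 had a lower finasteride effect in the mutant (12.0%). Over those libraries 0 rose in the mutant (11.3% of all genes) and 0 fell in wild type (5.00%; limma, 0 and 0 also at an unadjusted p under 0.05). On vehicle 2 were higher in the mutant (3.83% of all genes) and 0 lower (5.23%; limma, 1 at an unadjusted p under 0.05). On finasteride 0 were higher in the mutant (22.4%; limma, 0 also at an unadjusted p under 0.05), and 0 had a higher effect in it (17.4%; limma, 1 at an unadjusted p under 0.05). All genes called over 16 libraries kept their direction over 11. Taken out of log2, the 38 genes made up 1.44% to 2.21% of the summed values in mutant finasteride and 2.48% to 3.47% in wild type finasteride libraries. Their share was 2.38% to 2.62% in mutant vehicle and 1.94% to 2.39% in wild type vehicle libraries. Under quantile normalization 25 fell in the mutant, and the calls of Calr, Canx, P4hb, Sec61b, Ssr1 and Ssr3 ended. Making the library medians equal moved the median of all genes by -0.14 in the mutant, by -0.13 between the finasteride groups and by -0.21 in the difference of effects. Quantile normalization moved it by -0.11 between the finasteride groups and by -0.15 in the difference of effects. The medians of the 38 kept their sign and were -0.79, -0.99 and -1.39 with equal library medians, and -0.77 and -0.91 under quantile normalization. With equal library medians 21.4% of all genes were higher and 33.0% lower in the mutant on finasteride, and 28.6% were higher and 38.5% lower in it between the finasteride groups.

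**Figure D1:**
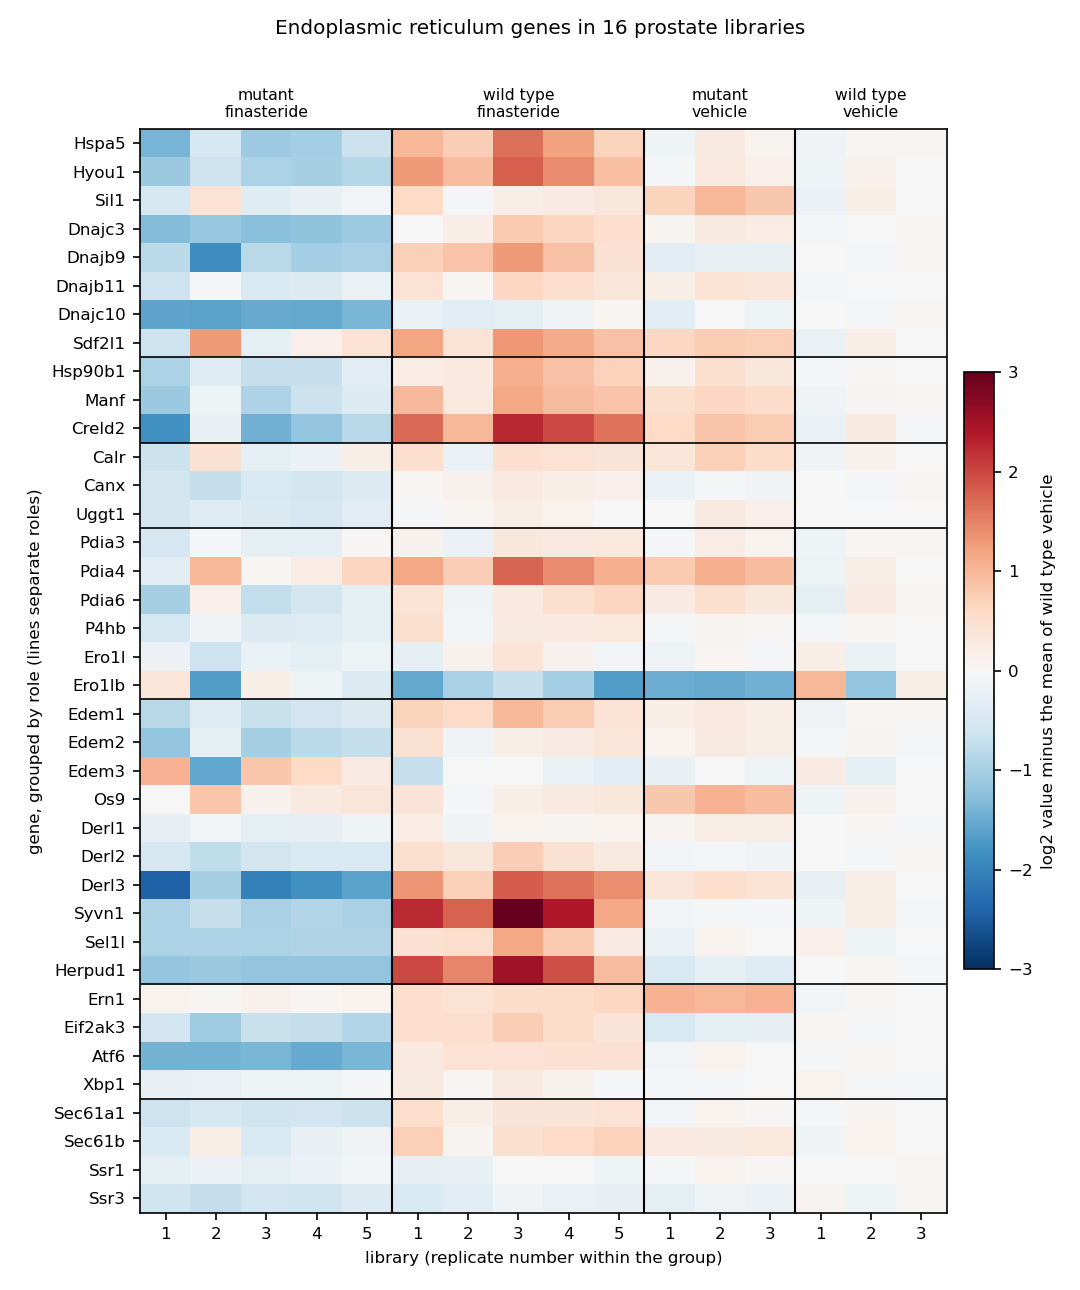
Each row is 1 of the 38 genes, grouped by role, and each column 1 library; colour is the log2 value minus the mean of the 3 wild type vehicle libraries. Most rows are below that mean in the 5 mutant finasteride libraries and above it in the 5 wild type finasteride libraries. Ero1lb and Edem3 are among the exceptions, as are Os9 and Ern1, which lie above that mean in all 5 mutant finasteride libraries. Pdia4 and Sdf2l1 lie above it on average there, and Dnajc10, Ssr1 and Ssr3 below it on average in wild type finasteride.

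**Figure D2:**
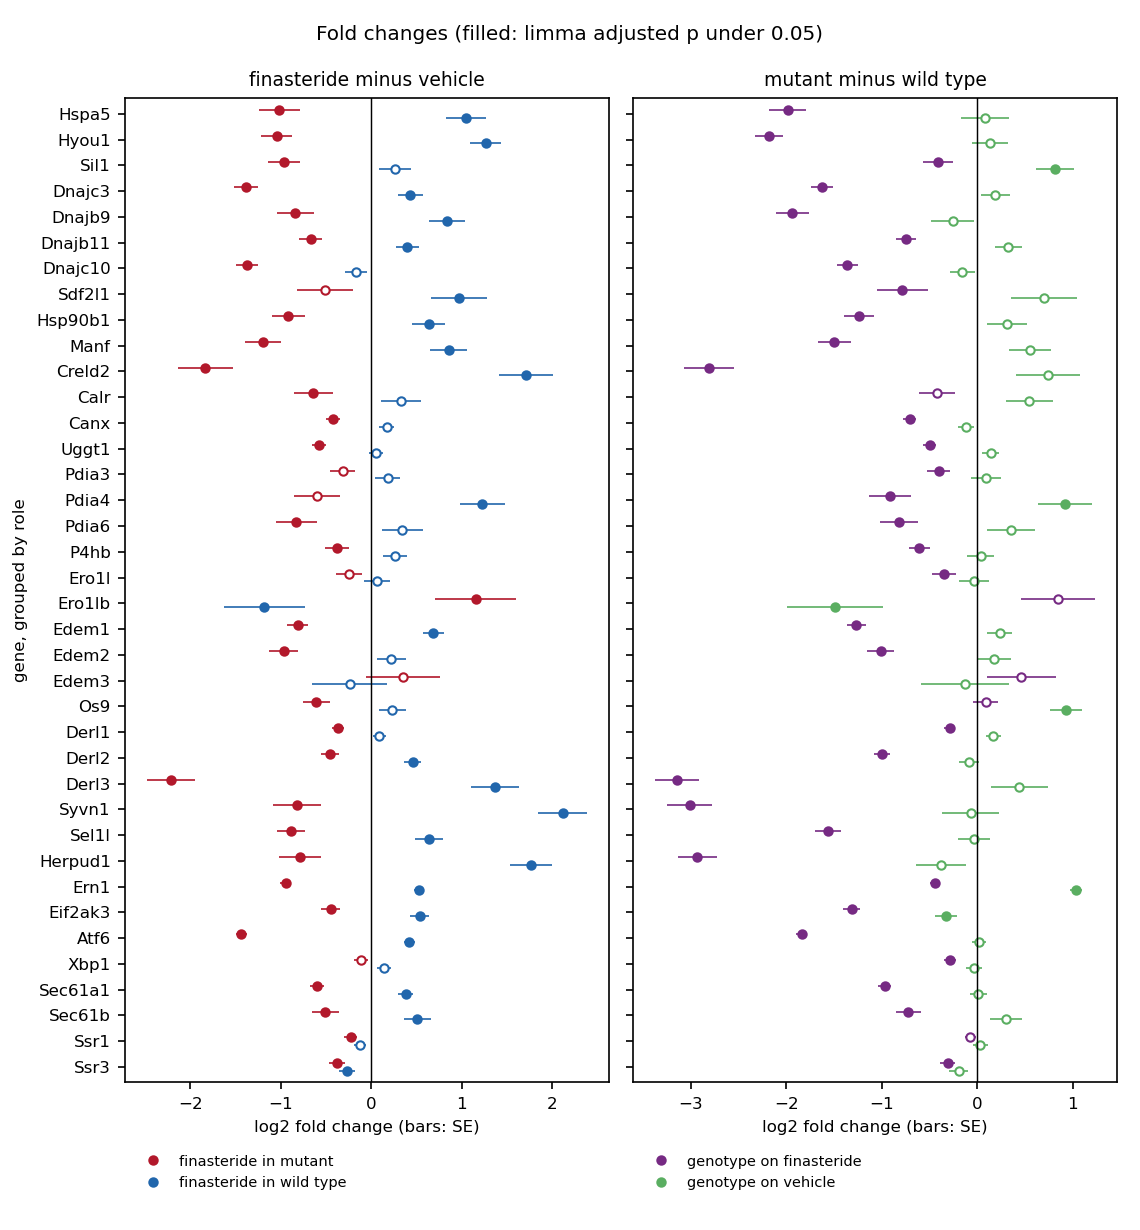
Log2 fold changes with their SE as bars, one row per gene; the left panel gives finasteride minus vehicle in the mutant and in wild type, the right panel mutant minus wild type on finasteride and on vehicle. Filled points passed a limma adjusted p of 0.05, as 32 of 38 did in the mutant and 23 in wild type.

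Genes that mark the cell types of the tissue changed in the same comparisons, and their part in the results was not tested. Among all genes, 26.3% were higher and 22.3% lower on finasteride in the mutant, against 17.9% and 21.9% in wild type. Over 11 libraries those shares were 11.3% and 9.06% in the mutant, and 3.56% and 5.00% in wild type. The 10 macrophage markers were all higher on finasteride in the mutant, and 6 of 10 were lower in wild type. Their log2 summed level was 12.56 to 13.15 in mutant finasteride and 11.31 to 11.88 in wild type finasteride libraries. The macrophage sum was 11.63 to 11.68 in mutant vehicle and 12.19 to 12.24 in wild type vehicle libraries. Plasma cell markers, of interest because plasma cells are rich in these folding genes, were higher in the mutant for 6 of 8 and lower in wild type for 3. These summed to 12.02 to 12.40 in mutant finasteride and 9.97 to 10.46 in wild type finasteride libraries. The plasma cell sum was 10.76 to 10.81 in mutant vehicle and 10.43 to 10.45 in wild type vehicle libraries. The markers of both lists that passed the test in the mutant were all higher there. Of 10 secretory luminal genes, 3 were higher and 4 lower in the mutant, and 1 was higher and 6 lower in wild type, with a sum of 18.17 to 18.49 in mutant finasteride and 20.27 to 20.88 in wild type finasteride libraries. The secretory luminal sum was 19.45 to 19.72 in mutant vehicle and 21.02 to 21.08 in wild type vehicle libraries. Luminal keratins and other epithelial genes were higher for 2 of 7 and lower for 1 in the mutant, and 3 were higher in wild type, with a sum of 15.57 to 16.03 in mutant finasteride and 15.64 to 15.90 in wild type finasteride libraries. The keratin and epithelial sum was 15.62 to 15.68 in mutant vehicle and 15.48 to 15.65 in wild type vehicle libraries. Among basal markers 2 of 6 were lower in the mutant, and 1 was higher and 2 lower in wild type, with a sum of 13.05 to 13.25 in mutant finasteride and 12.84 to 13.09 in wild type finasteride libraries. The basal sum was 13.06 to 13.09 in mutant vehicle and 13.08 to 13.14 in wild type vehicle libraries.

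Fibroblast markers were higher in the mutant for 6 of 9 and lower in wild type for 6, and summed to 14.11 to 14.43 in mutant finasteride and 13.67 to 14.19 in wild type finasteride libraries. The fibroblast sum was 13.67 to 13.86 in mutant vehicle and 14.53 to 14.73 in wild type vehicle libraries. All 7 smooth muscle markers were higher in the mutant and 1 was higher in wild type, and the list summed to 16.55 to 16.91 in mutant finasteride and 16.34 to 17.05 in wild type finasteride libraries. The smooth muscle sum was 15.93 to 16.22 in mutant vehicle and 16.27 to 16.58 in wild type vehicle libraries. Of the skeletal muscle markers 4 of 8 were higher in the mutant, and 1 was higher and 5 lower in wild type, with a sum of 12.07 to 12.52 in mutant finasteride and 11.54 to 12.55 in wild type finasteride libraries. The skeletal muscle sum was 11.88 to 12.10 in mutant vehicle and 11.48 to 11.71 in wild type vehicle libraries. In the mutant the fibroblast and muscle markers that were called were thus all higher. Adipocyte markers were higher in the mutant for 3 of 8 and lower for 1, lower in wild type for all 8, and summed to 11.40 to 11.99 in mutant finasteride and 9.15 to 11.24 in wild type finasteride libraries. The adipocyte sum was 10.72 to 11.22 in mutant vehicle and 11.72 to 12.30 in wild type vehicle libraries. For urothelial markers 1 of 4 was higher and 1 lower in the mutant, and 1 was lower in wild type, with a sum of 13.47 to 14.69 in mutant finasteride and 12.35 to 12.65 in wild type finasteride libraries. The urothelial sum was 13.81 to 14.60 in mutant vehicle and 13.12 to 13.30 in wild type vehicle libraries. Seminal vesicle genes, which mark tissue next to the prostate, were higher for 2 of 7 in the mutant and lower for all 7 in wild type, with a sum of 16.65 to 21.54 in mutant finasteride and 9.40 to 14.34 in wild type finasteride libraries. The seminal vesicle sum was 16.61 to 17.92 in mutant vehicle and 9.82 to 21.68 in wild type vehicle libraries. Within groups, wild type vehicle 2 (9.82, against 20.37 and 21.68) and mutant finasteride 2 (16.65, against 20.49 to 21.54) stood apart by that sum. Wild type finasteride 1 was high in its group, at 14.34 against 9.40 to 10.83. No marker was listed at 0 in any library. Over 11 libraries, 10 macrophage, 5 plasma cell, 3 skeletal muscle and 2 fibroblast markers were higher in the mutant. Of the smooth muscle, adipocyte, urothelial, keratin and secretory luminal markers 1 each was higher in it, while 4 secretory luminal and 1 basal marker were lower. In wild type, 6 adipocyte, 4 fibroblast, 3 macrophage and 3 secretory luminal markers were lower over 11 libraries, as was 1 each of the plasma cell, skeletal muscle and urothelial markers. Seminal vesicle genes then gave 0 calls in either genotype (limma, 3 lower in wild type at an unadjusted p under 0.05), and 0 markers of any list were higher in wild type (limma, 2 keratin, 1 basal and 1 skeletal muscle marker at an unadjusted p under 0.05). With that sum as a covariate, 29 of the 38 genes fell in the mutant (20.4% of all genes) and 13 rose in wild type (6.91%). Only wild type vehicle 2 lay in the range of wild type finasteride, and only mutant finasteride 2 in that of mutant vehicle. The sum and the treatment are thus hard to tell apart in that fit. Without wild type finasteride 2 and mutant finasteride 2, 34 fell in the mutant (26.8% of all genes) and 29 rose in wild type (24.3%). Wild type vehicle 2 stayed in that fit, and wild type vehicle 2 and mutant finasteride 2 were not left out together. The rises in wild type that the covariate ended were those of Hspa5, Dnajc3, Dnajb11, Sdf2l1, Hsp90b1, Manf, Pdia4 and Sec61b, and the falls it ended in the mutant those of Calr and P4hb.

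BiP and the factors that drive its cycle fell on finasteride in the mutant and mostly rose in wild type. Of the 8 genes, 7 fell in the mutant (all but Sdf2l1) and 6 rose in wild type (all but Sil1 and Dnajc10), and the finasteride effect was lower in the mutant for all 8. Hspa5, which encodes BiP itself, had log2 values of 14.09, 14.96, 14.39, 14.46 and 14.84 in mutant finasteride and 16.48, 16.21, 17.13, 16.70 and 16.14 in wild type finasteride libraries. Hspa5 was at 15.36, 15.76 and 15.58 in mutant vehicle and 15.38, 15.55 and 15.52 in wild type vehicle libraries. The mutant finasteride libraries lay below all others and the wild type finasteride libraries above all others, while the vehicle groups overlapped. In the mutant Hspa5 changed by -1.02 ± 0.22 (adjusted p = 0.00173, and 0.0845 over 11 libraries). In wild type Hspa5 changed by 1.05 ± 0.22 (adjusted p = 0.00227, and 0.0747 over 11 libraries), so neither call held over 11 libraries. Hspa5 differed by -1.98 ± 0.19 (adjusted p = 4.4e-07, and 0.000737 over 11 libraries) on finasteride, mutant minus wild type.

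Hyou1, a large chaperone that also exchanges the nucleotide on BiP, had the largest rise of the 8 in wild type, with values of 12.29, 12.78, 12.45, 12.41 and 12.54 in mutant finasteride and 14.69, 14.33, 15.19, 14.83 and 14.32 in wild type finasteride libraries. Hyou1 was at 13.37, 13.69 and 13.57 in mutant vehicle and 13.28, 13.54 and 13.40 in wild type vehicle libraries. Its libraries fell in the same 3 layers as those of Hspa5. In the mutant Hyou1 changed by -1.05 ± 0.17 (adjusted p = 0.000153, and 0.0244 over 11 libraries). In wild type Hyou1 changed by 1.27 ± 0.17 (adjusted p = 9.94e-05, and 0.023 over 11 libraries). Hyou1 differed by -2.18 ± 0.15 (adjusted p = 9.39e-09, and 7.51e-05 over 11 libraries) on finasteride, mutant minus wild type. Dnajc3, a J-domain partner of BiP, had the deepest fall of the 8 in the mutant, at 12.84, 13.00, 12.88, 12.92 and 13.04 in mutant finasteride and 14.15, 14.34, 14.91, 14.78 and 14.63 in wild type finasteride libraries. Dnajc3 was at 14.21, 14.40 and 14.35 in mutant vehicle and 14.06, 14.15 and 14.18 in wild type vehicle libraries. Every mutant finasteride library was below every other library, and the wild type finasteride libraries overlapped both vehicle groups. In the mutant Dnajc3 changed by -1.39 ± 0.14 (adjusted p = 1.71e-06, and 0.00264 over 11 libraries). In wild type Dnajc3 changed by 0.43 ± 0.14 (adjusted p = 0.0212, and 0.196 over 11 libraries). The wild type call of Dnajc3 ended without wild type vehicle 1 (adjusted p = 0.0796) or wild type finasteride 4 (adjusted p = 0.0508).

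Dnajc10, a J protein that reduces disulphide bonds of proteins bound for degradation, had values of 14.62, 14.61, 14.69, 14.67 and 14.83 in mutant finasteride and 16.02, 15.86, 15.94, 16.10 and 16.28 in wild type finasteride libraries. Dnajc10 was at 15.90, 16.22 and 16.06 in mutant vehicle and 16.20, 16.17 and 16.26 in wild type vehicle libraries. Only the mutant finasteride libraries stood apart, below the rest, and the other 3 groups overlapped. Dnajc10 changed by -1.38 ± 0.12 (adjusted p = 6.2e-07, and 0.00252 over 11 libraries) in the mutant. In wild type the value was -0.17 ± 0.12 (adjusted p = 0.268), where quantile normalization gave the other sign, 0.44 ± 0.15 (adjusted p = 0.0287). Sil1, another nucleotide exchange factor of BiP, was the 1 gene of the 8 called between genotypes on vehicle, at 11.36, 12.32, 11.52, 11.67 and 11.81 in mutant finasteride and 12.47, 11.82, 12.08, 12.13 and 12.23 in wild type finasteride libraries. Sil1 was at 12.54, 12.87 and 12.70 in mutant vehicle and 11.70, 12.06 and 11.89 in wild type vehicle libraries. Its mutant vehicle libraries were above all others, and the remaining groups overlapped. Mutant minus wild type, Sil1 differed by 0.82 ± 0.20 (adjusted p = 0.0062, and 0.111 over 11 libraries) on vehicle. On finasteride Sil1 differed by -0.41 ± 0.16 (adjusted p = 0.0313), a call that ended without any 1 of 6 finasteride libraries (adjusted p from 0.0503 to 0.0885). With finasteride it changed by -0.96 ± 0.18 (adjusted p = 0.000481, and 0.044 over 11 libraries) in the mutant.

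Dnajb9, a J protein that brings misfolded chains to degradation, ran 9.77 to 10.83 in mutant finasteride and 12.10 to 12.92 in wild type finasteride libraries. Dnajb9 ran 11.32 to 11.42 in mutant vehicle and 11.58 to 11.67 in wild type vehicle libraries. In the mutant Dnajb9 changed by -0.84 ± 0.20 (adjusted p = 0.00329, and 0.0466 over 11 libraries). In wild type Dnajb9 changed by 0.84 ± 0.20 (adjusted p = 0.00487, and 0.0819 over 11 libraries). Its finasteride groups lay on either side of the vehicle groups. Dnajb11, a J protein that binds unfolded substrates, ran 10.92 to 11.49 in mutant finasteride and 11.60 to 12.16 in wild type finasteride libraries. Dnajb11 ran 11.72 to 11.95 in mutant vehicle and 11.49 to 11.56 in wild type vehicle libraries. In the mutant Dnajb11 changed by -0.67 ± 0.13 (adjusted p = 0.000515, and 0.0509 over 11 libraries). In wild type Dnajb11 changed by 0.40 ± 0.13 (adjusted p = 0.0212, and 0.179 over 11 libraries). The wild type call of Dnajb11 ended without wild type vehicle 1 (adjusted p = 0.0745) or 3 (adjusted p = 0.0542). Sdf2l1, a partner of Dnajb11, ran 11.44 to 13.33 in mutant finasteride and 12.47 to 13.35 in wild type finasteride libraries. Sdf2l1 ran 12.68 to 12.82 in mutant vehicle and 11.86 to 12.27 in wild type vehicle libraries. In Sdf2l1 the mutant finasteride libraries spread over a range of 11.44 to 13.33, and the fold change there was -0.51 ± 0.31 (adjusted p = 0.186), or -0.78 without mutant finasteride 2 (adjusted p = 0.00933). Its rise in wild type was 0.97 ± 0.31 (adjusted p = 0.021, and 0.166 over 11 libraries). This call of Sdf2l1 ended without wild type vehicle 1 (adjusted p = 0.0844) or 3 (adjusted p = 0.0609). Mutant minus wild type, Sdf2l1 differed on finasteride by -0.78 ± 0.27 (adjusted p = 0.0179), a call that ended without mutant finasteride 1 (adjusted p = 0.0518) or 3 (adjusted p = 0.0501). On vehicle its difference was 0.70 ± 0.34 (adjusted p = 0.138, and 0.033 without mutant finasteride 2).

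The other 3 folding factors all fell in the mutant and all rose in wild type on finasteride. Creld2, a stress-induced resident protein of the reticulum, changed most, with values of 10.43, 12.02, 10.81, 11.05 and 11.40 in mutant finasteride and 13.95, 13.23, 14.51, 14.21 and 13.87 in wild type finasteride libraries. Creld2 was at 12.83, 13.10 and 13.00 in mutant vehicle and 12.03, 12.51 and 12.18 in wild type vehicle libraries. The 4 groups did not overlap, with mutant finasteride lowest, then wild type vehicle, mutant vehicle and wild type finasteride. In the mutant Creld2 changed by -1.83 ± 0.30 (adjusted p = 0.00016, and 0.0233 over 11 libraries). In wild type Creld2 changed by 1.71 ± 0.30 (adjusted p = 0.000617, and 0.0409 over 11 libraries). Creld2 differed by -2.81 ± 0.26 (adjusted p = 2.41e-07, and 0.00041 over 11 libraries) on finasteride, mutant minus wild type, a factor of 7 lower in the mutant. On vehicle the difference was 0.74 ± 0.34 (adjusted p = 0.107), and it passed the threshold without mutant finasteride 2 (adjusted p = 0.0432).

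Hsp90b1, the Hsp90 chaperone of the reticulum, had values of 13.29, 13.84, 13.54, 13.55 and 13.91 in mutant finasteride and 14.46, 14.52, 15.31, 15.12 and 14.91 in wild type finasteride libraries. Hsp90b1 was at 14.37, 14.70 and 14.56 in mutant vehicle and 14.18, 14.26 and 14.25 in wild type vehicle libraries. Mutant finasteride libraries were below all others, and wild type finasteride libraries were above wild type vehicle but overlapped mutant vehicle. In the mutant Hsp90b1 changed by -0.92 ± 0.18 (adjusted p = 0.000857, and 0.0523 over 11 libraries). In wild type Hsp90b1 changed by 0.63 ± 0.18 (adjusted p = 0.0135, and 0.164 over 11 libraries). The wild type call of Hsp90b1 ended without wild type vehicle 1 (adjusted p = 0.0509). Manf, a small protein that binds BiP and can be secreted, ran 11.66 to 12.66 in mutant finasteride and 13.08 to 13.95 in wild type finasteride libraries. Manf ran 13.26 to 13.41 in mutant vehicle and 12.68 to 12.86 in wild type vehicle libraries. In the mutant Manf changed by -1.19 ± 0.20 (adjusted p = 0.000202, and 0.0264 over 11 libraries). In wild type Manf changed by 0.86 ± 0.20 (adjusted p = 0.00398, and 0.0826 over 11 libraries). On vehicle, mutant minus wild type, its difference was 0.55 ± 0.22 (adjusted p = 0.0726), which passed without wild type finasteride 2, mutant finasteride 1 or mutant finasteride 2 (adjusted p from 0.0339 to 0.0483).

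The lectin chaperones and their checking enzyme fell in the mutant on finasteride, all 3 of them, by -0.42 to -0.64 log2 units, and 0 of the 3 passed the threshold in wild type (limma, 1, Canx, at an unadjusted p under 0.05). Calr, calreticulin, had log2 values of 14.55, 15.66, 14.91, 15.01 and 15.37 in mutant finasteride and 15.70, 15.00, 15.70, 15.62 and 15.58 in wild type finasteride libraries. Calr was at 15.55, 15.91 and 15.75 in mutant vehicle and 15.09, 15.32 and 15.17 in wild type vehicle libraries. The mutant finasteride libraries of Calr overlapped every other group, and mutant vehicle lay above wild type vehicle. It changed by -0.64 ± 0.22 (adjusted p = 0.0249, and 0.28 over 11 libraries) in the mutant. The call of Calr ended without mutant vehicle 2 (adjusted p = 0.102), mutant vehicle 3 (adjusted p = 0.0689), mutant finasteride 1 (adjusted p = 0.0536) or mutant finasteride 3 (adjusted p = 0.0522). On finasteride the difference in Calr was -0.42 ± 0.19 (adjusted p = 0.0624), and it passed without wild type finasteride 2 (adjusted p = 0.0136), mutant finasteride 2 (adjusted p = 0.0089) or mutant finasteride 5 (adjusted p = 0.047).

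Canx, the membrane-bound partner calnexin, was steadier within groups, at 13.12, 12.96, 13.20, 13.11 and 13.25 in mutant finasteride and 13.73, 13.80, 13.97, 13.87 and 13.81 in wild type finasteride libraries. Canx was at 13.47, 13.61 and 13.57 in mutant vehicle and 13.67, 13.62 and 13.71 in wild type vehicle libraries. Its 4 groups did not overlap, with mutant finasteride lowest and wild type finasteride highest. Canx changed by -0.42 ± 0.08 (adjusted p = 0.000465, and 0.0435 over 11 libraries) in the mutant, and its fold change in wild type was 0.17 ± 0.08 (adjusted p = 0.0979). Canx differed by -0.71 ± 0.07 (adjusted p = 3.51e-07, and 0.000672 over 11 libraries) on finasteride, mutant minus wild type. Uggt1, which puts a glucose back on misfolded glycoproteins so that the lectins bind them again, ran 12.48 to 12.68 in mutant finasteride and 12.97 to 13.22 in wild type finasteride libraries. Uggt1 ran 13.03 to 13.30 in mutant vehicle and 13.02 to 13.04 in wild type vehicle libraries. In the mutant Uggt1 changed by -0.58 ± 0.08 (adjusted p = 2.79e-05, and 0.0146 over 11 libraries).

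Disulphide genes were the least uniform role, and they hold the 1 gene of the list that rose in the mutant. Of the 6, 2 fell on finasteride in the mutant (Pdia6 and P4hb) and 1 rose (Ero1lb), while in wild type 1 rose (Pdia4) and 1 fell (Ero1lb). Pdia4, a disulphide isomerase, had values of 12.70, 14.05, 13.11, 13.27 and 13.69 in mutant finasteride and 14.21, 13.79, 14.80, 14.47 and 14.10 in wild type finasteride libraries. Pdia4 was at 13.82, 14.10 and 13.97 in mutant vehicle and 12.90, 13.21 and 13.02 in wild type vehicle libraries. Wild type finasteride and mutant vehicle libraries were above wild type vehicle, and mutant finasteride libraries overlapped all groups. In wild type Pdia4 rose by 1.23 ± 0.25 (adjusted p = 0.00176, and 0.0648 over 11 libraries). On vehicle Pdia4 was higher in the mutant by 0.92 ± 0.28 (adjusted p = 0.0216, and 0.201 over 11 libraries). The vehicle call ended without any 1 of 4 vehicle libraries (adjusted p from 0.057 to 0.0721). Its fold change in the mutant was -0.60 ± 0.25 (adjusted p = 0.0616), which passed in 4 of the fits without 1 library, among them that without mutant finasteride 2 (adjusted p = 0.00929). Pdia4 differed by -0.91 ± 0.22 (adjusted p = 0.00202, and 0.0804 over 11 libraries) on finasteride, mutant minus wild type.

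P4hb, protein disulphide isomerase itself, had values of 14.82, 15.24, 14.92, 14.95 and 15.04 in mutant finasteride and 15.82, 15.26, 15.62, 15.64 and 15.66 in wild type finasteride libraries. P4hb was at 15.31, 15.43 and 15.38 in mutant vehicle and 15.30, 15.40 and 15.32 in wild type vehicle libraries. Mutant finasteride libraries were below all others, and wild type finasteride libraries overlapped both vehicle groups. P4hb changed by -0.38 ± 0.13 (adjusted p = 0.0232, and 0.286 over 11 libraries) in the mutant. This call of P4hb ended without mutant vehicle 2 (adjusted p = 0.082) or 3 (adjusted p = 0.0687). The fold change of P4hb in wild type was 0.26 ± 0.13 (adjusted p = 0.115, and 0.0216 without wild type finasteride 2). Pdia6, another isomerase, changed by -0.83 ± 0.22 (adjusted p = 0.00675, and 0.151 over 11 libraries) in the mutant. Pdia6 values were 13.99 to 15.14 in mutant finasteride and 14.87 to 15.63 in wild type finasteride libraries. Pdia6 ran 15.22 to 15.45 in mutant vehicle and 14.68 to 15.23 in wild type vehicle libraries. Pdia3, the isomerase that works with the lectin chaperones, ran 14.22 to 14.76 in mutant finasteride and 14.55 to 15.07 in wild type finasteride libraries. Pdia3 ran 14.69 to 14.94 in mutant vehicle and 14.59 to 14.79 in wild type vehicle libraries. The difference between the finasteride effects was -0.50 ± 0.20 for Pdia3 (adjusted p = 0.0421), a call that held in 5 of the 16 fits without 1 library. The fold change of Pdia3 in the mutant was -0.31 ± 0.14 (adjusted p = 0.0737), past the threshold in 3 of those fits. Ero1l, the widely expressed oxidase that recharges the isomerases, ran 8.65 to 9.13 in mutant finasteride and 9.0 to 9.68 in wild type finasteride libraries. Ero1l ran 9.13 to 9.33 in mutant vehicle and 9.07 to 9.46 in wild type vehicle libraries. Mutant minus wild type, Ero1l differed on finasteride by -0.35 ± 0.12 (adjusted p = 0.0214). The call of Ero1l ended without wild type finasteride 3 (adjusted p = 0.064) or mutant finasteride 2 (adjusted p = 0.053).

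Ero1lb, the second oxidase, known for its high level in endocrine pancreas, was called higher on finasteride in the mutant and lower in wild type. Edem3, given below, had the same signs with no call in either genotype. The log2 values of Ero1lb were 10.48, 8.44, 10.29, 9.99 and 9.71 in mutant finasteride and 8.58, 9.14, 9.42, 9.10 and 8.43 in wild type finasteride libraries. Ero1lb was at 8.62, 8.59 and 8.66 in mutant vehicle and 11.11, 8.93 and 10.29 in wild type vehicle libraries. Mutant finasteride 2 and wild type vehicle 2 were low in their groups, and these are the libraries that were low in seminal vesicle genes. In the mutant Ero1lb changed by 1.16 ± 0.45 (adjusted p = 0.0432, and 0.331 over 11 libraries). In wild type Ero1lb changed by -1.18 ± 0.45 (adjusted p = 0.0467, and 0.24 over 11 libraries). The mutant call held in 7 and the wild type call in 5 of the 16 fits without 1 library. Without mutant finasteride 2 the fold change was 1.49 ± 0.37 in the mutant (adjusted p = 0.00373). Without wild type vehicle 2 it was -1.77 ± 0.42 in wild type (adjusted p = 0.00596). With the summed seminal vesicle level as a covariate, the fold change was 0.71 ± 0.35 in the mutant (adjusted p = 0.111) and -0.16 ± 0.42 in wild type (adjusted p = 0.824). The difference between the effects of Ero1lb was 0.87 ± 0.60 (adjusted p = 0.271) against 2.34 ± 0.63 (adjusted p = 0.00559) without it. On vehicle, mutant minus wild type, Ero1lb differed by -1.49 ± 0.50 (adjusted p = 0.0329, and 0.248 over 11 libraries). That vehicle call ended without any 1 of 5 vehicle libraries (adjusted p from 0.074 to 0.163) and held with the covariate, at -1.49 ± 0.36 (adjusted p = 0.00603). On finasteride the difference of Ero1lb was 0.85 ± 0.39 (adjusted p = 0.0671). It was past the threshold without mutant finasteride 2 (adjusted p = 0.0052), wild type vehicle 1 (adjusted p = 0.0432) or wild type vehicle 2 (adjusted p = 0.0311). With the covariate, whose values did not overlap between the finasteride groups, it was -0.62 ± 0.48 (adjusted p = 0.335).

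**Figure D3:**
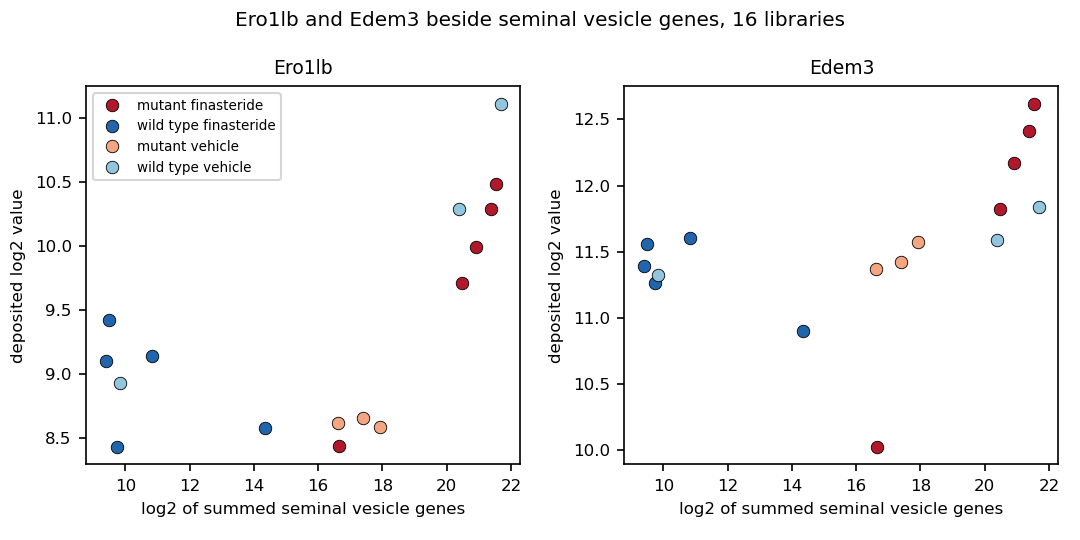
Log2 values of Ero1lb and Edem3 on the vertical axes against the log2 summed level of 7 seminal vesicle genes on the horizontal axis, 1 point per library, coloured by group. Within mutant finasteride the library at 16.65 is the lowest for both genes, and within wild type vehicle the library at 9.82 is.

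The degradation genes held the largest changes of the list. Of the 10, 9 fell on finasteride in the mutant (all but Edem3) and 6 rose in wild type (Edem1, Derl2, Derl3, Syvn1, Sel1l and Herpud1). Syvn1, the ubiquitin ligase at the centre of the pathway, had log2 values of 11.13, 11.35, 11.07, 11.18 and 11.07 in mutant finasteride and 14.28, 13.83, 15.07, 14.45 and 13.22 in wild type finasteride libraries. Syvn1 was at 11.97, 11.99 and 11.98 in mutant vehicle and 11.92, 12.25 and 11.98 in wild type vehicle libraries. Mutant finasteride libraries lay below all others and wild type finasteride libraries above all others, with the vehicle groups together in between. Syvn1 changed by -0.82 ± 0.27 (adjusted p = 0.0199, and 0.184 over 11 libraries) in the mutant. This call of Syvn1 ended without any 1 of the 3 mutant vehicle libraries (adjusted p from 0.052 to 0.0564). The SD of Syvn1 was 0.69 in wild type finasteride, 0.11 in mutant finasteride and 0.0067 in mutant vehicle libraries. The shared spread behind that adjusted p thus includes wild type finasteride libraries, which are not in the comparison. In wild type Syvn1 changed by 2.12 ± 0.27 (adjusted p = 7.03e-05, and 0.0193 over 11 libraries). Syvn1 differed by -3.01 ± 0.23 (adjusted p = 3.78e-08, and 0.000135 over 11 libraries) on finasteride, mutant minus wild type, a factor of 8.06 lower in the mutant.

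Herpud1, which helps to gather the ligase complex, had values of 12.07, 12.12, 12.04, 12.05 and 12.04 in mutant finasteride and 15.21, 14.69, 15.76, 15.17 and 14.15 in wild type finasteride libraries. Herpud1 was at 12.77, 12.96 and 12.84 in mutant vehicle and 13.23, 13.28 and 13.18 in wild type vehicle libraries. The 5 mutant finasteride libraries spanned 12.04 to 12.12, below every other library, and the wild type finasteride libraries were above every other library. In the mutant Herpud1 changed by -0.79 ± 0.23 (adjusted p = 0.0114, and 0.144 over 11 libraries). The SD of Herpud1 was likewise unequal, at 0.61 in wild type finasteride, 0.034 in mutant finasteride and 0.096 in mutant vehicle libraries. In wild type Herpud1 changed by 1.77 ± 0.23 (adjusted p = 8.87e-05, and 0.0224 over 11 libraries). Herpud1 differed by -2.93 ± 0.20 (adjusted p = 1.12e-08, and 7.51e-05 over 11 libraries) on finasteride, mutant minus wild type. Sel1l, the adaptor that holds Syvn1 steady, ran 12.15 to 12.20 in mutant finasteride and 13.36 to 14.27 in wild type finasteride libraries. Sel1l ran 12.90 to 13.21 in mutant vehicle and 12.94 to 13.26 in wild type vehicle libraries. In the mutant Sel1l changed by -0.89 ± 0.15 (adjusted p = 0.000229, and 0.0261 over 11 libraries). In wild type Sel1l changed by 0.64 ± 0.15 (adjusted p = 0.00443, and 0.103 over 11 libraries). Edem1, a mannose-trimming factor that marks glycoproteins for removal, kept both calls over 11 libraries, and ran 11.90 to 12.33 in mutant finasteride and 13.16 to 13.73 in wild type finasteride libraries. Edem1 ran 12.93 to 13.02 in mutant vehicle and 12.62 to 12.79 in wild type vehicle libraries. In the mutant Edem1 changed by -0.81 ± 0.12 (adjusted p = 5.31e-05, and 0.0139 over 11 libraries). In wild type Edem1 changed by 0.69 ± 0.12 (adjusted p = 0.00053, and 0.0402 over 11 libraries).

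Derl3, a derlin of the membrane machinery that is typical of secretory cells, had the deepest fall in the mutant, at 9.29, 10.74, 9.71, 9.91 and 10.12 in mutant finasteride and 13.04, 12.43, 13.54, 13.35 and 13.11 in wild type finasteride libraries. Derl3 was at 12.10, 12.26 and 12.14 in mutant vehicle and 11.51, 11.93 and 11.74 in wild type vehicle libraries. The 4 groups were apart, with mutant finasteride lowest, then wild type vehicle, mutant vehicle and wild type finasteride, as for Creld2. In the mutant Derl3 changed by -2.21 ± 0.26 (adjusted p = 1.01e-05, and 0.00539 over 11 libraries). In wild type Derl3 changed by 1.37 ± 0.26 (adjusted p = 0.00116, and 0.0536 over 11 libraries). Derl3 differed by -3.14 ± 0.23 (adjusted p = 1.98e-08, and 9.87e-05 over 11 libraries) on finasteride, mutant minus wild type, a factor of 8.82 lower in the mutant. The difference of the finasteride effects on Derl3 was -3.58 ± 0.37 (adjusted p = 2.43e-06, and 0.00213 over 11 libraries). Derl2 ran 10.11 to 10.43 in mutant finasteride and 11.15 to 11.62 in wild type finasteride libraries. Derl2 ran 10.78 to 10.82 in mutant vehicle and 10.83 to 10.95 in wild type vehicle libraries. In the mutant Derl2 changed by -0.46 ± 0.09 (adjusted p = 0.0011, and 0.0383 over 11 libraries). In wild type Derl2 changed by 0.46 ± 0.09 (adjusted p = 0.00182, and 0.0537 over 11 libraries). Derl1, the third derlin, ran 11.31 to 11.50 in mutant finasteride and 11.47 to 11.80 in wild type finasteride libraries. Derl1 ran 11.67 to 11.78 in mutant vehicle and 11.55 to 11.61 in wild type vehicle libraries. Derl1 changed by -0.37 ± 0.07 (adjusted p = 0.000611, and 0.0781 over 11 libraries) in the mutant, and its fold change was 0.09 ± 0.07 in wild type (adjusted p = 0.341).

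Os9, a lectin that hands trimmed glycoproteins to the ligase complex, differed between genotypes on vehicle, with 13.58, 14.39, 13.70, 13.84 and 13.92 in mutant finasteride and 13.96, 13.50, 13.77, 13.84 and 13.91 in wild type finasteride libraries. Os9 was at 14.37, 14.61 and 14.50 in mutant vehicle and 13.44, 13.69 and 13.56 in wild type vehicle libraries. Mutant vehicle libraries were above both wild type groups, and mutant finasteride 2 reached into their range. On vehicle, mutant minus wild type, Os9 differed by 0.93 ± 0.17 (adjusted p = 0.000751, and 0.0493 over 11 libraries). On finasteride the difference of Os9 was 0.09 ± 0.13 (adjusted p = 0.564). With finasteride it changed by -0.61 ± 0.15 (adjusted p = 0.00424, and 0.134 over 11 libraries) in the mutant, and the value was 0.23 ± 0.15 in wild type (adjusted p = 0.236). Edem2 ran 11.48 to 12.40 in mutant finasteride and 12.55 to 13.11 in wild type finasteride libraries. Edem2 ran 12.76 to 12.93 in mutant vehicle and 12.60 to 12.75 in wild type vehicle libraries. In the mutant Edem2 changed by -0.97 ± 0.16 (adjusted p = 0.000187, and 0.0264 over 11 libraries). Edem3, another mannose-trimming enzyme, had 12.62, 10.02, 12.41, 12.17 and 11.82 in mutant finasteride and 10.90, 11.60, 11.56, 11.39 and 11.26 in wild type finasteride libraries. Edem3 was at 11.37, 11.57 and 11.42 in mutant vehicle and 11.84, 11.32 and 11.59 in wild type vehicle libraries. Its mutant finasteride 2 was the lowest of all 16 libraries, and the other 4 of that group ran 11.82 to 12.62. The fold change of Edem3 in the mutant was 0.35 ± 0.41 (adjusted p = 0.504). It was 0.80 ± 0.19 without mutant finasteride 2 (adjusted p = 0.00231) and 0.11 ± 0.41 with the seminal vesicle covariate (adjusted p = 0.847). In wild type Edem3 had a fold change of -0.24 ± 0.41 (adjusted p = 0.668). Without mutant finasteride 2, Edem3 was also higher in the mutant between the finasteride groups, by 0.91 (adjusted p = 0.000189), and its effects differed by 1.04 (adjusted p = 0.00285).

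**Figure D4:**
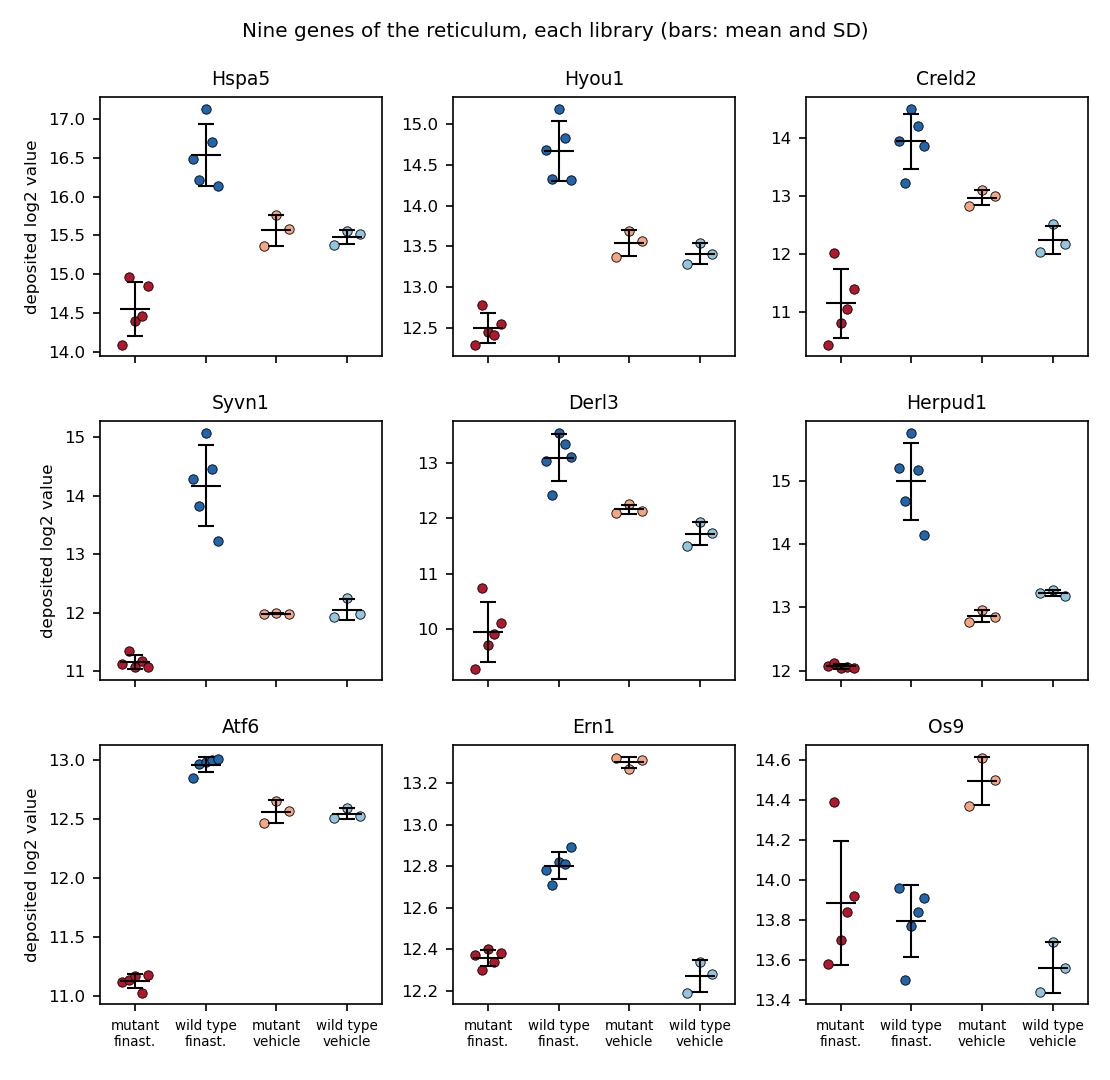
Log2 values of 9 of the genes, 1 panel each, with 1 point per library and the mean and SD of each group as bars. In Hspa5, Hyou1, Creld2, Syvn1, Derl3, Herpud1 and Atf6 the mutant finasteride libraries are below and the wild type finasteride libraries above all others, while Ern1 and Os9 have mutant vehicle at the top, with 13.27 to 13.32 and 14.37 to 14.61.

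Of the sensors, all 3 fell on finasteride in the mutant and all 3 rose in wild type, while the total RNA of Xbp1, the factor that Ern1 splices, was called in neither genotype. Atf6, the sensor that is cut free to act as a transcription factor, had values of 11.12, 11.14, 11.17, 11.03 and 11.18 in mutant finasteride and 12.85, 12.97, 12.99, 13.00 and 13.01 in wild type finasteride libraries. Atf6 was at 12.47, 12.66 and 12.57 in mutant vehicle and 12.51, 12.60 and 12.53 in wild type vehicle libraries. Mutant finasteride libraries were below every other library, and wild type finasteride libraries were above all others. In the mutant Atf6 changed by -1.44 ± 0.06 (adjusted p = 4.35e-10, and 8.03e-05 over 11 libraries). In wild type Atf6 changed by 0.42 ± 0.06 (adjusted p = 0.000185, and 0.0357 over 11 libraries). Atf6 differed by -1.84 ± 0.05 (adjusted p = 1.37e-12, and 1.29e-06 over 11 libraries) on finasteride, mutant minus wild type. Eif2ak3, the kinase PERK that slows translation, had 10.40, 9.90, 10.31, 10.25 and 10.10 in mutant finasteride and 11.47, 11.49, 11.70, 11.53 and 11.35 in wild type finasteride libraries. Eif2ak3 was at 10.51, 10.70 and 10.72 in mutant vehicle and 11.03, 10.94 and 10.95 in wild type vehicle libraries. Its groups did not overlap, with mutant finasteride lowest, then mutant vehicle, wild type vehicle and wild type finasteride. In the mutant Eif2ak3 changed by -0.45 ± 0.10 (adjusted p = 0.00207, and 0.0526 over 11 libraries). In wild type Eif2ak3 changed by 0.53 ± 0.10 (adjusted p = 0.00107, and 0.0525 over 11 libraries). On vehicle, mutant minus wild type, it differed by -0.33 ± 0.11 (adjusted p = 0.0372, and 0.191 over 11 libraries). The call of Eif2ak3 ended without any 1 of the 6 vehicle libraries (adjusted p from 0.0552 to 0.148).

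Ern1, the nuclease sensor IRE1, was ordered in another way, with 12.37, 12.30, 12.40, 12.34 and 12.38 in mutant finasteride and 12.78, 12.71, 12.82, 12.81 and 12.89 in wild type finasteride libraries. Ern1 was at 13.32, 13.27 and 13.31 in mutant vehicle and 12.19, 12.34 and 12.28 in wild type vehicle libraries. Mutant vehicle libraries were highest, wild type finasteride libraries came next, and mutant finasteride and wild type vehicle libraries overlapped at the bottom. In the mutant Ern1 changed by -0.95 ± 0.06 (adjusted p = 1.99e-08, and 0.000581 over 11 libraries). In wild type Ern1 changed by 0.53 ± 0.06 (adjusted p = 2.65e-05, and 0.0189 over 11 libraries). On vehicle it was higher in the mutant by 1.03 ± 0.07 (adjusted p = 5.4e-08, and 0.000964 over 11 libraries). On finasteride Ern1 differed by -0.44 ± 0.05 (adjusted p = 2.23e-06, and 0.00241 over 11 libraries), so the genotype difference had opposite signs on the 2 treatments. Xbp1 had 12.46, 12.49, 12.54, 12.54 and 12.63 in mutant finasteride and 12.95, 12.74, 12.96, 12.80 and 12.64 in wild type finasteride libraries. Xbp1 was at 12.64, 12.64 and 12.66 in mutant vehicle and 12.79, 12.62 and 12.63 in wild type vehicle libraries. Mutant finasteride libraries were below mutant vehicle and wild type finasteride libraries and touched wild type vehicle at 12.62 and 12.63. Its fold change was -0.11 ± 0.08 in the mutant (adjusted p = 0.237) and 0.14 ± 0.08 in wild type (adjusted p = 0.165). Xbp1 differed by -0.29 ± 0.07 (adjusted p = 0.00156, and 0.0475 over 11 libraries) on finasteride, mutant minus wild type. The difference of effects of Xbp1 was -0.25 ± 0.11 (adjusted p = 0.0599), past the threshold in 4 of the 16 fits without 1 library. Spliced Xbp1 was not analysed here.

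The 4 translocon genes all fell on finasteride in the mutant, and in wild type 2 rose (Sec61a1 and Sec61b) and 1 fell (Ssr3). Sec61a1, the pore of the channel, had values of 13.06, 13.15, 13.08, 13.10 and 13.03 in mutant finasteride and 14.19, 13.84, 14.07, 14.07 and 14.10 in wild type finasteride libraries. Sec61a1 was at 13.59, 13.77 and 13.70 in mutant vehicle and 13.61, 13.75 and 13.66 in wild type vehicle libraries. As for Atf6, mutant finasteride libraries were below and wild type finasteride libraries above all others. In the mutant Sec61a1 changed by -0.60 ± 0.08 (adjusted p = 2.65e-05, and 0.0138 over 11 libraries). In wild type Sec61a1 changed by 0.38 ± 0.08 (adjusted p = 0.00205, and 0.0947 over 11 libraries). Sec61b, a small subunit of the same channel, had 10.64, 11.30, 10.65, 10.88 and 10.99 in mutant finasteride and 11.83, 11.18, 11.58, 11.67 and 11.79 in wild type finasteride libraries. Sec61b was at 11.39, 11.38 and 11.43 in mutant vehicle and 10.99, 11.22 and 11.11 in wild type vehicle libraries. Mutant finasteride libraries were below mutant vehicle, and wild type finasteride libraries overlapped both vehicle groups. In the mutant Sec61b changed by -0.51 ± 0.15 (adjusted p = 0.011, and 0.205 over 11 libraries). In wild type Sec61b changed by 0.51 ± 0.15 (adjusted p = 0.0146, and 0.141 over 11 libraries). The wild type call of Sec61b ended without wild type vehicle 1 (adjusted p = 0.0683).

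Ssr1 and Ssr3 belong to the complex that sits beside the channel, and Ssr3 was the only 1 of the 38 genes to fall in both genotypes. Ssr3 ran 12.76 to 13.06 in mutant finasteride and 13.02 to 13.36 in wild type finasteride libraries. Ssr3 ran 13.17 to 13.35 in mutant vehicle and 13.34 to 13.55 in wild type vehicle libraries. In the mutant Ssr3 changed by -0.38 ± 0.09 (adjusted p = 0.00274, and 0.0979 over 11 libraries). In wild type Ssr3 changed by -0.27 ± 0.09 (adjusted p = 0.0284, and 0.233 over 11 libraries). The wild type call of Ssr3 ended without wild type vehicle 1 (adjusted p = 0.121), wild type vehicle 3 (adjusted p = 0.102) or wild type finasteride 1 (adjusted p = 0.0555). Ssr1 ran 12.16 to 12.33 in mutant finasteride and 12.17 to 12.43 in wild type finasteride libraries. Ssr1 ran 12.39 to 12.52 in mutant vehicle and 12.40 to 12.45 in wild type vehicle libraries. In the mutant Ssr1 changed by -0.23 ± 0.07 (adjusted p = 0.0143, and 0.199 over 11 libraries). The call of Ssr1 ended without mutant vehicle 2 (adjusted p = 0.0728), and under quantile normalization the direction was not kept. In wild type its fold change was -0.12 ± 0.07 (adjusted p = 0.171).

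In each of 8 further lists, of the secretory path and the stress response, more genes were lower than higher on finasteride in the mutant. In wild type the genes listed as PERK arm targets were called most often, and activity of PERK itself was not measured. Among all genes tested, 22.3% were lower and 26.3% higher in the mutant, with 17.9% higher and 21.9% lower in wild type. Over 11 libraries 9.06% were lower and 11.3% higher in the mutant, with 3.56% higher and 5.00% lower in wild type. Of the 12 genes listed for the PERK arm, 7 fell and 1 rose in the mutant (median -0.42), and 11 rose and 1 fell in wild type (median 1.08). Over 11 libraries 2 of the 12 fell in the mutant and 8 rose in wild type. Atf3 encodes a stress-induced transcription factor. In the mutant Atf3 changed by -0.98 ± 0.17 (adjusted p = 0.0003, and 0.0282 over 11 libraries). In wild type Atf3 changed by 1.75 ± 0.17 (adjusted p = 1.45e-05, and 0.012 over 11 libraries). Atf4, the factor whose translation PERK favours, rose by 1.10 ± 0.11 (adjusted p = 1.52e-05, and 0.012 over 11 libraries) in wild type. Asns, asparagine synthetase, changed by -1.01 ± 0.11 (adjusted p = 6.09e-06, and 0.00418 over 11 libraries) in the mutant. Mutant minus wild type, Asns differed by -2.61 ± 0.10 (adjusted p = 2.5e-11, and 2.57e-06 over 11 libraries) on finasteride. Nupr1, chosen after its values were seen, was the 1 gene called the other way in both genotypes. In the mutant Nupr1 changed by 4.23 ± 1.02 (adjusted p = 0.00326, and 0.0827 over 11 libraries). In wild type Nupr1 changed by -3.06 ± 1.02 (adjusted p = 0.0273, and 0.156 over 11 libraries).

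Of 20 other genes for translocation and signal peptides, 16 fell and 0 rose in the mutant (limma, 0 also at an unadjusted p under 0.05), and 5 rose and 1 fell in wild type. The receptor of the signal recognition particle, Srpr, changed by -0.86 ± 0.07 (adjusted p = 2.86e-07, and 0.0015 over 11 libraries) in the mutant. Srp68, a part of the particle, changed by 0.35 ± 0.07 (adjusted p = 0.00143, and 0.0858 over 11 libraries) in wild type. Of 19 genes for glycan transfer and trimming, 12 fell and 1 rose in the mutant (median -0.44). In wild type 5 of those glycan genes rose and 0 fell (median 0.23; limma, 1 lower at an unadjusted p under 0.05). Of 12 tested genes among 13 other disulphide isomerases and reductases, 5 fell and 0 rose in the mutant (median -0.31; limma, 1 higher at an unadjusted p under 0.05). In wild type 3 of the 12 rose and 4 fell (median 0.00). Among them Erp44, which retains client proteins in the early secretory path, changed by -0.85 ± 0.13 (adjusted p = 9.55e-05, and 0.0191 over 11 libraries) in the mutant. Pdia5, a disulphide isomerase, changed by 0.65 ± 0.10 (adjusted p = 0.000194, and 0.0271 over 11 libraries) in wild type. Of 17 other chaperones and prolyl isomerases, 9 fell and 4 rose in the mutant (median -0.40), and 3 rose and 5 fell in wild type (median 0.06). The calcium-binding gene Nucb2 had the lowest p in wild type, with -2.86 ± 0.46 (adjusted p = 0.000353, and 0.0305 over 11 libraries).

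Of 23 other degradation genes, 16 fell and 1 rose in the mutant (median -0.28), and 7 rose and 2 fell in wild type (median 0.10). Nploc4, a partner of the extracting ATPase, changed by -0.54 ± 0.06 (adjusted p = 6.09e-06, and 0.00528 over 11 libraries) in the mutant. The ligase gene Rnf5 changed by 0.87 ± 0.12 (adjusted p = 0.000124, and 0.023 over 11 libraries) in wild type. Of 22 genes of the COPII coat and of transport to the Golgi, 16 fell and 0 rose in the mutant (median -0.39; limma, 0 also at an unadjusted p under 0.05). In wild type 7 of the 22 rose and 0 fell (median 0.16; limma, 1 lower at an unadjusted p under 0.05). Sec24d, a cargo adaptor of the coat, changed by -1.17 ± 0.11 (adjusted p = 1.04e-06, and 0.00188 over 11 libraries) in the mutant. Kdelr1, a receptor that returns resident proteins, changed by 0.58 ± 0.10 (adjusted p = 0.000396, and 0.0396 over 11 libraries) in wild type. Of 7 tested genes among 9 other membrane sensors and proteases, 4 fell and 1 rose in the mutant (median -0.37), and 1 rose and 2 fell in wild type (median -0.09). Creb3l1, a membrane-bound factor related to Atf6, had the other signs. In the mutant Creb3l1 changed by 0.88 ± 0.19 (adjusted p = 0.00136, and 0.0397 over 11 libraries). In wild type Creb3l1 changed by -0.72 ± 0.19 (adjusted p = 0.00756, and 0.0947 over 11 libraries). Over 11 libraries, the falls in the mutant were 7 of 20 for translocation, 7 of 19 for glycans, 2 of 12 for disulphide genes, 3 of 17 for chaperones, 6 of 23 for degradation and 7 of 22 for COPII genes, with 0 of 7 for sensors and proteases (limma, 3 at an unadjusted p under 0.05). The rises in wild type were then 2 for glycans, 1 for disulphide genes, 2 for degradation and 1 for COPII genes, and 0 for translocation, chaperones, and sensors and proteases (limma, 3, 3 and 1 at an unadjusted p under 0.05).

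**Figure D5:**
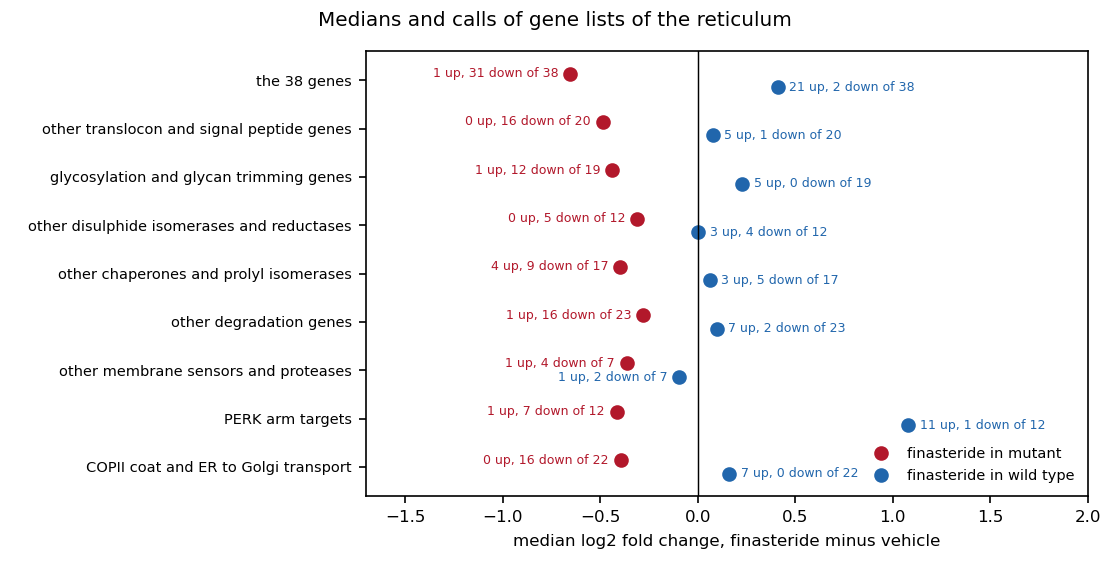
Median log2 fold change, finasteride minus vehicle, of the 38 genes and of 8 other lists of the reticulum and of transport from it, in the mutant and in wild type, with the number of genes called in each direction. All medians are below 0 in the mutant, and in wild type they run from -0.09 (other sensors) to 1.08 (PERK arm targets).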

How the data were processed

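Poly-A RNA of 16 mouse prostate samples was sequenced (TruSeq libraries, HiSeq2000), per the labels' protocols. The authors deposited 1 table of normalized log2 expression per gene; base 2 was inferred from the values, and which tool made it is not given in the sources used here. Per the submitters' processing notes, CASAVA 1.8.2, TopHat, Cufflinks, DESeq, DESeq2 and build mm9 were used. Read depth is unknown. Low values may be shrunken by that normalization, which was not tested and would understate the fold changes of genes with low expression.

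Samples were grouped by the labelled genotype and treatment; the running numbers of the titles pair nothing. The 16895 of 29535 genes whose linear values averaged 10 or more were fitted with limma 3.58.1 in R 4.3.3 as 4 group means with a variance trend, and adjusted by Benjamini and Hochberg at 0.05. The fit was tested on simulated data. Errors beside fold changes are moderated SE. Libraries were compared with mixtures of 2 others of their group over genes at or above 8, and called mixture-like where both weights exceeded 0.2 and the residual was under 0.1.

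Members and gene lists were chosen with earlier results of these data known. In each role, the gene with the largest called change in each comparison and the one with the highest mean level are given with every sample; Hspa5, Herpud1 and Edem3 were added after their values were seen. From other lists, at most the 2 genes with the lowest p in a comparison are named, Nupr1 apart. The lists were PERK targets, translocation, glycan, disulphide, chaperone, degradation, sensor and COPII genes, and markers of secretory luminal, keratin-rich epithelial, basal, plasma, macrophage, fibroblast, smooth muscle, skeletal muscle, adipocyte, seminal vesicle and urothelial cells. Promoters came from RefSeq and exons from the GENCODE annotation, both on GRCm38.p6. Coordinates are of that build and were not carried over to mm9. The mutated gene is not reported here. Alternatives were other scalings, a pseudocount of 10, no filter or one at 50, no variance trend, fits of 2 groups, the 11 libraries, each library left out, the seminal vesicle sum as a covariate, and 2 libraries left out.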

Additional observations from a re-analysis of the deposited data

Results flagged for a closer look

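In 5 of the 76 gene and group combinations with 5 libraries, 1 library lay far from the other 4 of its group by Dixon's test, where chance gives about 1 in 20. Mutant finasteride 2 was low for Dnajb9 (9.77, against 10.62 to 10.83), Ero1l (8.65, against 9.01 to 9.13) and Derl2 (10.11, against 10.34 to 10.43). Wild type finasteride 2 was low for Calr (15.00, against 15.58 to 15.70), and wild type finasteride 1 for Atf6 (12.85, against 12.97 to 13.01).

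The finasteride effect differed between the genotypes, by limma's test of the difference itself, for 33 of the 38 genes, and the values below are log2 fold changes in the mutant minus those in wild type. In the BiP cycle the difference was -2.06 for Hspa5, -2.31 for Hyou1, -1.23 for Sil1, -1.82 for Dnajc3, -1.68 for Dnajb9, -1.07 for Dnajb11, -1.20 for Dnajc10 and -1.48 for Sdf2l1. Among the other folding factors it was -1.55 for Hsp90b1, -2.05 for Manf and -3.55 for Creld2. In the lectin cycle the values were -0.97 for Calr, -0.59 for Canx and -0.64 for Uggt1. For disulphide formation they were -0.50 for Pdia3, -1.83 for Pdia4, -1.17 for Pdia6, -0.64 for P4hb and 2.34 for Ero1lb. Of the degradation genes, the values were -1.50 for Edem1, -1.19 for Edem2, -0.84 for Os9, -0.46 for Derl1, -0.92 for Derl2, -3.58 for Derl3, -2.94 for Syvn1, -1.53 for Sel1l and -2.56 for Herpud1. The sensors had -1.48 for Ern1, -0.98 for Eif2ak3 and -1.86 for Atf6. Lastly, the channel subunits had -0.98 for Sec61a1 and -1.02 for Sec61b. All but Ero1lb were negative.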

How the results depend on the processing

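Counts and medians below are of the 38 genes. Over 11 libraries, 7 genes rose and 0 fell in wild type, 0 rose and 17 fell in the mutant, 2 were higher and 0 lower in the mutant on vehicle, and 0 had a higher effect in the mutant; fewer libraries enter that fit. With library medians made equal, 0 fell in wild type, 0 rose in the mutant, 1 was lower in the mutant on vehicle, and the median difference of effects was -1.39. Under quantile normalization the median was -0.45 for finasteride in the mutant and -0.91 for the difference of effects, the change of Dnajc10 in wild type reversed to 0.44, and that of Ssr1 in the mutant to 0.0018; the cause was not tested. Without the filter, and likewise without the variance trend, 1 gene fell in wild type, 0 rose in the mutant and 1 was lower in the mutant on vehicle. With only the 2 groups of a comparison in the fit, 0 fell in wild type, and 14 were higher and 4 lower in the mutant on vehicle; the cause was not tested. The filter at 50 and the pseudocount of 10 changed no call among the 190 tests of the 38 genes.

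Chosen after seeing the data, the seminal vesicle covariate left 13 rises and 0 falls in wild type, 0 rises in the mutant, 0 higher effects in the mutant, and medians of -0.69 between the finasteride groups and -0.95 for the difference of effects; it ended 29 calls over the 5 comparisons, 9 of them between the finasteride groups. The seminal vesicle sum did not overlap between the finasteride groups, at 16.65 to 21.54 in mutant and 9.40 to 14.34 in wild type libraries. The adjusted difference there extends the slope within groups beyond values that the groups share. Wild type finasteride 2 and mutant finasteride 2 were also left out together, a choice made afterwards. Then 2 genes rose in the mutant, 11 were higher in it on vehicle, 2 were higher in it on finasteride and 2 had a higher effect. The medians were then -1.07 between the finasteride groups and -1.32 for the difference of effects.

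Leaving out 1 library at a time gave 27 to 34 falls and 0 to 2 rises in the mutant (median -0.77 to -0.59), 16 to 22 rises and 0 to 2 falls in wild type (median 0.37 to 0.47), 31 to 34 genes lower and 0 to 2 higher in the mutant on finasteride (median -0.98 to -0.73), 3 to 7 higher and 0 to 2 lower on vehicle (median 0.05 to 0.19), and 31 to 33 lower and 1 to 2 higher effects in the mutant (median -1.26 to -1.07). Without mutant finasteride 2, 7 genes were higher in the mutant on vehicle. No paired analysis was possible because the titles carry running numbers only. Groups of 3 and unknown depth limit what small changes can be called.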
